A study of Mus musculus with 2 samples.

Results

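Chemokine signals between dendritic cells and T cells were followed through 7 genes: the chemokines Ccl17, Ccl22 and Cxcl16, which dendritic cells and macrophages release or display, and the receptors Ccr4, Ccr8, Ccr7 and Cxcr6, with which T cells, NK cells and dendritic cells answer chemokines. They were chosen by symbol, and all 7 were found among the 27998 genes of the table. Their levels were read in 4495 cells, 1174 from a control library and 3321 from an anti-PD-1 library, each cell being a barcode with at least 1000 UMIs (unique molecular identifiers, each standing for 1 captured transcript) and at most 10% mitochondrial UMIs.

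The cells were viable CD45+ (immune) cells sorted from tumours of MC38, a colon carcinoma line of the mouse, in C57BL/6J animals and profiled by droplet RNA sequencing from the 3′ end of transcripts. Tumour cells were placed in the skin at 4 sites per mouse and grew for 7 days. The control tumours then received a control injection that the labels do not describe further, and the other tumours received an antibody against PD-1, the inhibitory receptor of activated T cells, at 200 µg per mouse per day; both were taken on day 10. Each group was 1 library, and the sources used here do not give the number of mice pooled in it. There is therefore no replicate check and no test between the conditions. Levels are given as counts per 1000000 UMIs of a cell class (CPM) and ratios as log2 of anti-PD-1 over control, each with a 95% interval that covers counting error only, not the spread between cells, tumours or mice. Because tumour and stromal cells were sorted away, chemokine made by them was not measured.

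Chemokine pairs guide where leukocytes go. Ccl17 and Ccl22 are secreted ligands of Ccr4, a receptor known from regulatory T cells and from helper T cells of the type 2 kind. Ccr8 is a second receptor known from tumour regulatory T cells, and its mouse ligands are Ccl1 and Ccl8. Cxcl16 is made as a membrane protein that can be shed, and it binds Cxcr6 on activated and tissue-resident T cells. Ccr7 takes mature dendritic cells, naive T cells and B cells towards the Ccl19 and Ccl21 of lymph nodes, and in dendritic cells it marks the mature, migratory state.

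Ccl22 and Ccl17 are neighbours on mouse chromosome 8 (GRCm38, GENCODE vM21). Ccl22 spans 94745590 to 94751699 and Ccl17 spans 94810453 to 94812036, both on the plus strand and 58753 bases apart. The bases just before their starts are shown because the genes are neighbours that encode ligands of the same receptor, and capitals mark the match to a STAT6-type motif (TTCNNNNGAA, the same on both strands). The stretches come from RefSeq promoter entries of GRCm38 and leave out bases inside the annotated gene, which gave 250 bases for Ccl17 (chr8:94810203-94810452) and 156 for Ccl22 (chr8:94745434-94745589).
Ccl17: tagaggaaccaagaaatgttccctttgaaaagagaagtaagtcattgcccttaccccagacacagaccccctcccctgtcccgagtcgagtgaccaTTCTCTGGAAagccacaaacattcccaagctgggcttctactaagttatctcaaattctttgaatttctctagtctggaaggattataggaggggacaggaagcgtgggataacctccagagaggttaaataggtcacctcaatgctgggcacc
Ccl22: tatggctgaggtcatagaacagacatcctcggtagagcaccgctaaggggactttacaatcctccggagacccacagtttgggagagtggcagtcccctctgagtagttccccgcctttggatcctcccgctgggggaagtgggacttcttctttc
The Ccl17 match lay 154 to 145 bases before its start, and 6.95% of all 32851 promoter entries of the same length held such a match. No match to that motif, to an NF-kB-type motif (GGGANNTTCC, both strands, in 1.47% of entries) or to TATAAA (both strands, in 13.6%) was found in the full Ccl22 entry, nor in those of Ccr4, Ccr8 and Cxcr6. Cxcl16 lies on chromosome 11 (70453983 to 70459984, minus strand), as does Ccr7 (99144196 to 99155077, minus strand). Ccr4 (114490316 to 114504916, minus strand), Ccr8 (120092114 to 120094906, plus strand) and Cxcr6 (123806475 to 123811760, plus strand) lie on chromosome 9. All 7 are annotated as protein-coding.

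Over all cells the median depth was 3287 UMIs in control and 2763 in anti-PD-1 cells, and 4 cell barcodes were shared between the libraries. Within classes the medians lay further apart in places. They were 5664 and 4293 UMIs in migratory-DC-like, 6780 and 4796 in cDC2-like and 2874 and 2126 in regulatory T-cell-like cells. In monocyte/macrophage-like cells the anti-PD-1 library was the deeper one (4349 and 4978). Cells were sorted into 11 classes from marker genes, with the 7 genes and all other chemokine genes kept out of the clustering. The migratory-DC-like class (32 control and 105 anti-PD-1 cells) carried Fscn1, the actin-bundling protein of mature dendritic cells, at 2070 and 2975 CPM. The cDC2-like class (56 and 67 cells) carried the lectin gene Cd209a at 886 and 580 CPM. Over both libraries Cd209a was 1254 CPM in its cluster led by Cd209d and Cd209e and 115 CPM in that led by H2-DMb2 and H2-Oa. The monocyte/macrophage-like class (337 and 538 cells) carried Lyz2 at 11103 and 14856 CPM. Regulatory T-cell-like cells (164 and 341) held Foxp3 at 270 and 322 CPM, CD8 T-cell-like cells (64 and 1077) held Cd8a at 794 and 792 CPM, and NK-cell-like cells (366 and 653) held Ncr1 at 326 and 433 CPM. Free RNA made up an estimated 1.68% of the UMIs of control lymphocytes and 2.07% of those of anti-PD-1 lymphocytes, from which no more than 5.21 CPM of any of the 7 genes would come.

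Ccl22 was nearly confined to migratory-DC-like cells, which held 97.2% of its 179 UMIs in control cells and 96.4% of its 1055 UMIs in anti-PD-1 cells. Ccl17 came from both dendritic classes. Migratory-DC-like cells held 63.3% and 47.4% of its UMIs, and cDC2-like cells held 35.3% and 50.5%. No Ccl17 UMI was found in monocyte/macrophage-like cells of either library. Cxcl16 had the widest set of sources, with 76.5% of its control UMIs and 53.1% of its anti-PD-1 UMIs in monocyte/macrophage-like cells and 14.4% and 36.2% in migratory-DC-like cells.

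**Figure D1:**
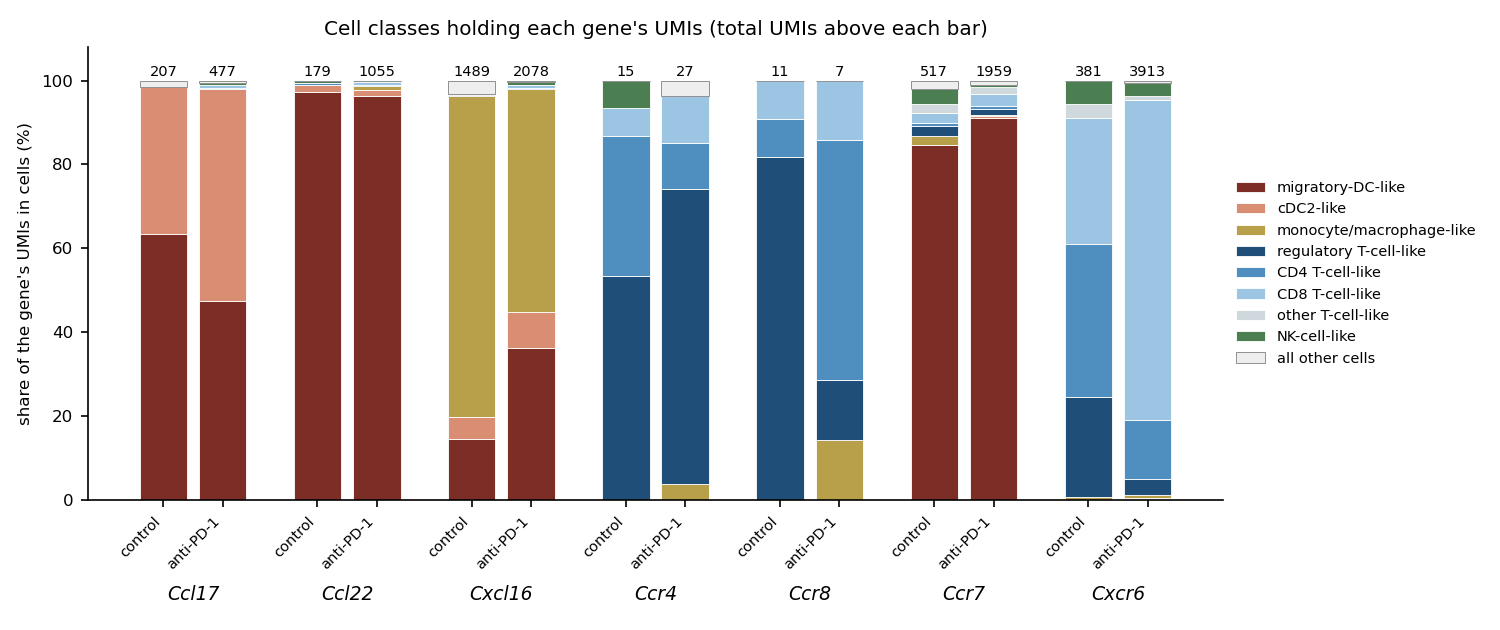
Share of each gene's UMIs (vertical axis, in percent) held by each cell class in the control and the anti-PD-1 library, with the gene's total UMIs in cells above each bar. Migratory-DC-like cells hold 97.2% and 96.4% of the Ccl22 UMIs and 84.5% and 91.2% of the Ccr7 UMIs, while the Cxcr6 bars change from mixed T-cell classes in control cells to 76.4% CD8 T-cell-like cells in anti-PD-1 cells.

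In migratory-DC-like cells the Ccl22 level was 976 CPM in control and 2120 CPM in anti-PD-1 (log2 ratio 1.12, 0.89 to 1.36). It was 2.17-fold higher and the 1 of 4 measured members (those with at least 20 UMIs over both libraries) to pass the call used throughout, at least 2-fold with an interval that leaves out 1. In that class 6.34% of the 3297 genes tested were called higher and 2.09% lower. The ratio rested on a few cells. The median cell held 4 Ccl22 UMIs in control and 3 in anti-PD-1, or 748 and 742 CPM, so the middle of the class was alike in both libraries. At the top, the richest control cell held 19 UMIs and the richest anti-PD-1 cell 190. None of the 32 control cells had 20 or more Ccl22 UMIs, which allows a share of up to 9.38%, against 11 of 105 anti-PD-1 cells (10.5%, 5.35 to 17.97). These 11 cells held 65.9% of the class's Ccl22 UMIs in that library. Their median depth was 6308 UMIs, against 4108 for the other anti-PD-1 cells of the class, and the part of depth in the difference was not tested. When each cell was weighted alike the log2 ratio was 0.61, and without the richest cell of each library it was 0.95, both under 2-fold.

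The class was made of a pair of clusters. In the cluster led by Il12b, the shared chain of interleukin 12 and 23, and Ramp3 (18 control and 48 anti-PD-1 cells), Ccl22 was 1197 CPM in control and 946 CPM in anti-PD-1 cells, a log2 ratio of -0.34 (-0.67 to 0.00). In the cluster led by Apol7c and Synpo2 (14 and 57 cells) it was 664 and 3021 CPM, a log2 ratio of 2.19 (1.77 to 2.63). Of the 11 anti-PD-1 cells with 20 or more Ccl22 UMIs, 10 lay in the Apol7c and Synpo2 cluster. The Il12b cluster made up 56.2% of the control and 45.7% of the anti-PD-1 class.

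Ccl17 in migratory-DC-like cells was 735 CPM in control and 471 CPM in anti-PD-1 cells, a log2 ratio of -0.64 (-0.96 to -0.32) that did not reach 2-fold. It was held by fewer cells than Ccl22, with a UMI in 13 of 32 (control) and 25 of 105 (anti-PD-1). In each library 3 cells with 20 or more UMIs held most of it, 76.3% of the control and 54.4% of the anti-PD-1 UMIs. The Il12b cluster had 785 and 754 CPM, and the Apol7c and Synpo2 cluster 664 and 254 CPM, where the log2 ratio was -1.38 (-1.93 to -0.83). Thus in the Apol7c and Synpo2 cluster the ratios of the neighbouring genes had opposite signs, at cell numbers of 14 and 57. The Ccl17 ratio there leaned on 1 control cell, which held 38 of the cluster's 49 control UMIs. No ratio without that cell was computed for the cluster. Among cells with Ccl17, Ccl22 was found in 12 of 13 (control, 92.3%) and 23 of 25 (anti-PD-1), and in 78.9% and 77.5% of those without it, which were shallower (medians of 5169 against 6492 and 3570 against 6098 UMIs).

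**Figure D2:**
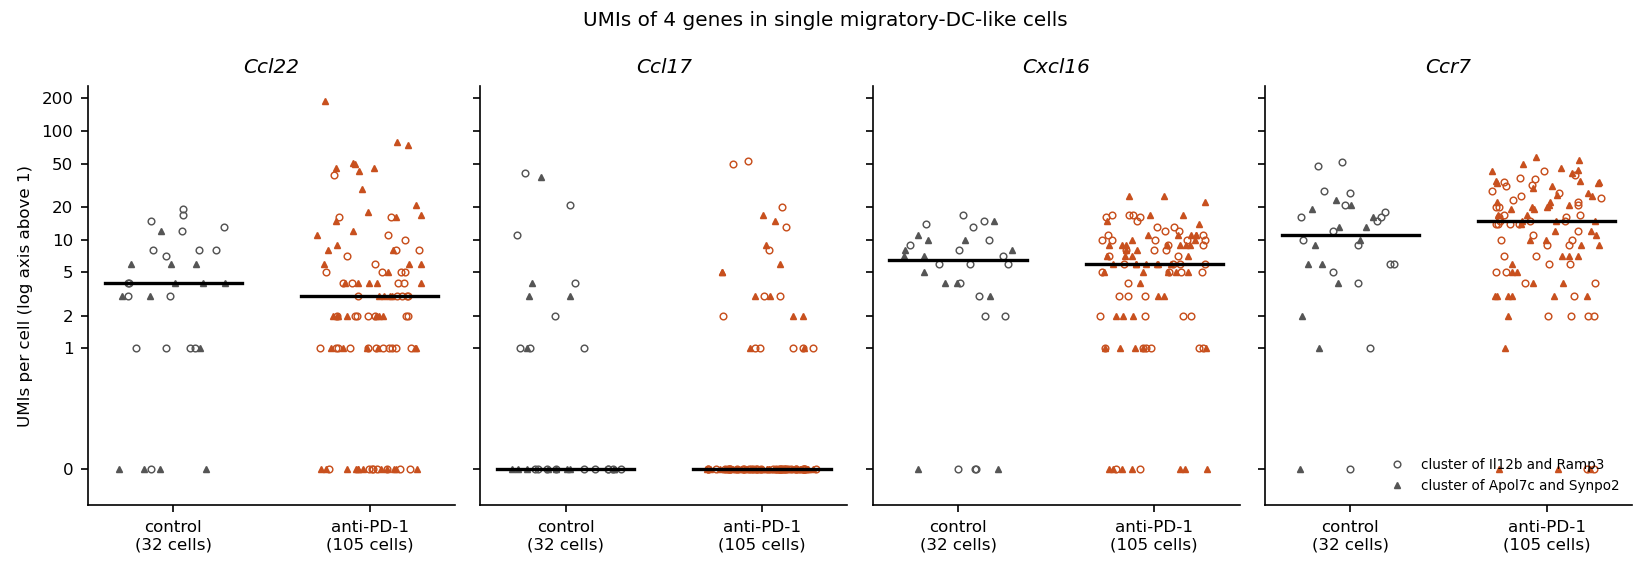
UMIs of Ccl22, Ccl17, Cxcl16 and Ccr7 in single migratory-DC-like cells (vertical axis, log scale above 1), with 32 control and 105 anti-PD-1 cells, open circles for the Il12b and Ramp3 cluster, filled triangles for the Apol7c and Synpo2 cluster and a bar at the median. The Ccl22 medians are 4 and 3 UMIs, and the highest anti-PD-1 cells, up to 190 UMIs, are nearly all triangles.

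Cxcl16 in migratory-DC-like cells was 1200 CPM in control and 1568 CPM in anti-PD-1 cells (log2 ratio 0.39, 0.16 to 0.61). It was spread over the class, with a UMI in 27 of 32 and 96 of 105 cells. The median was 6.5 and 6 UMIs per cell, and the median cell stood at 1153 and 1517 CPM. Ccr7, the lymph-node homing receptor, was 2451 and 3723 CPM (log2 ratio 0.60, 0.45 to 0.76), with a UMI in 30 of 32 and 100 of 105 cells. Its median cell stood at 2029 and 3423 CPM, so the difference was seen in the middle of the class as well as in the sum, and at 1.52-fold it stayed under the call. Ccr4 and Ccr8 had no UMI in this class in either library, and Cxcr6 had 0 and 10.

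In cDC2-like cells both measured members were higher in the anti-PD-1 library, in a class where 4.02% of 3685 genes were called higher and 1.93% lower. Ccl17 was 198 CPM in control and 706 CPM in anti-PD-1 cells (log2 ratio 1.84, 1.45 to 2.23). This gene was read from 5 of 56 (control) and 7 of 67 cells (anti-PD-1). In control 1 cell held 62 of the 73 UMIs (84.9%), and in anti-PD-1 the 3 richest cells, with 91, 82 and 56 UMIs, held 95.02% of 241. Without the richest cell of each library the log2 ratio was 3.88. In the cluster led by the class II genes H2-DMb2 and H2-Oa (20 and 31 cells) Ccl17 was 447 and 633 CPM (log2 ratio 0.50, 0.05 to 0.96), and in the cluster led by Cd209d and Cd209e (36 and 36 cells) it was 2 UMIs in 1 cell against 138 UMIs in 2 cells.

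Cxcl16 in cDC2-like cells was 219 and 524 CPM (log2 ratio 1.26, 0.87 to 1.65), with a UMI in 24 of 56 and 32 of 67 cells. It was read mainly from the H2-DMb2 and H2-Oa cluster, where it was 453 and 1051 CPM (log2 ratio 1.21, 0.81 to 1.63). Markers of other cells also differed in this class. All 6 T-cell markers were detected in anti-PD-1 cDC2-like cells and 2 of 6 in control, with summed levels of 243 and 5.42 CPM, and a UMI of a Cd3 gene was found in 17 of 67 and 1 of 56 cells. Monocyte and macrophage markers summed to 2722 CPM in control and 4090 CPM in anti-PD-1 cells. Their part in the Ccl17 and Cxcl16 values was not tested. Ccl22 had 3 and 14 UMIs and Ccr7 had 1 and 6, too few to be measured. The cDC1-like class was too small for a ratio (13 and 15 cells), and its Cxcl16 stood at 403 and 134 CPM on 47 and 9 UMIs.

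In monocyte/macrophage-like cells Cxcl16 was 674 CPM in control and 352 CPM in anti-PD-1 cells, a log2 ratio of -0.94 (-1.06 to -0.82) just short of 2-fold. A UMI was found in 177 of 337 and 239 of 538 cells. Between clusters the level ran from above 1000 CPM to under 100, and within clusters the libraries lay close together. The cluster of Mmp13, Mmp12 (matrix metalloproteinases) and Arg1 (arginase 1) had 1141 CPM (control) and 1136 CPM (anti-PD-1). The cluster of Fcrls and Ch25h had 1153 and 1043 CPM, and that of Ccl24, Arg1 and Mmp12 had 1021 and 970 CPM. The Mmp12 and Hmox1 cluster had 650 and 913 CPM, the Ifi205, Tgm2 and Oasl1 cluster 646 and 537 CPM, the Gbp2b and Ccl8 cluster 328 and 392 CPM, and the Lyz1, Ccl7 and Ccl2 cluster 171 and 115 CPM. In each of these 7 clusters the interval of the log2 ratio held 0. With the matched clusters weighted alike, the log2 ratio was -0.03.

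The clusters differed in their share of the class. The Cxcl16-rich Ccl24, Arg1 and Mmp12 cluster was 19.6% of the control and 3.90% of the anti-PD-1 class. The Cxcl16-poor cluster of Elane, Prtn3 and Chil3, genes known from early myeloid cells, was 0.593% and 17.1%, and the cluster of Ace and Adgre4, genes known from patrolling monocytes, was 3.26% and 14.7%. In the other direction the Cxcl16-rich Mmp13, Mmp12 and Arg1 cluster was 4.75% and 10.0%, and the Cxcl16-poor Lyz1, Ccl7 and Ccl2 cluster was 19.9% and 4.28%.

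**Figure D3:**
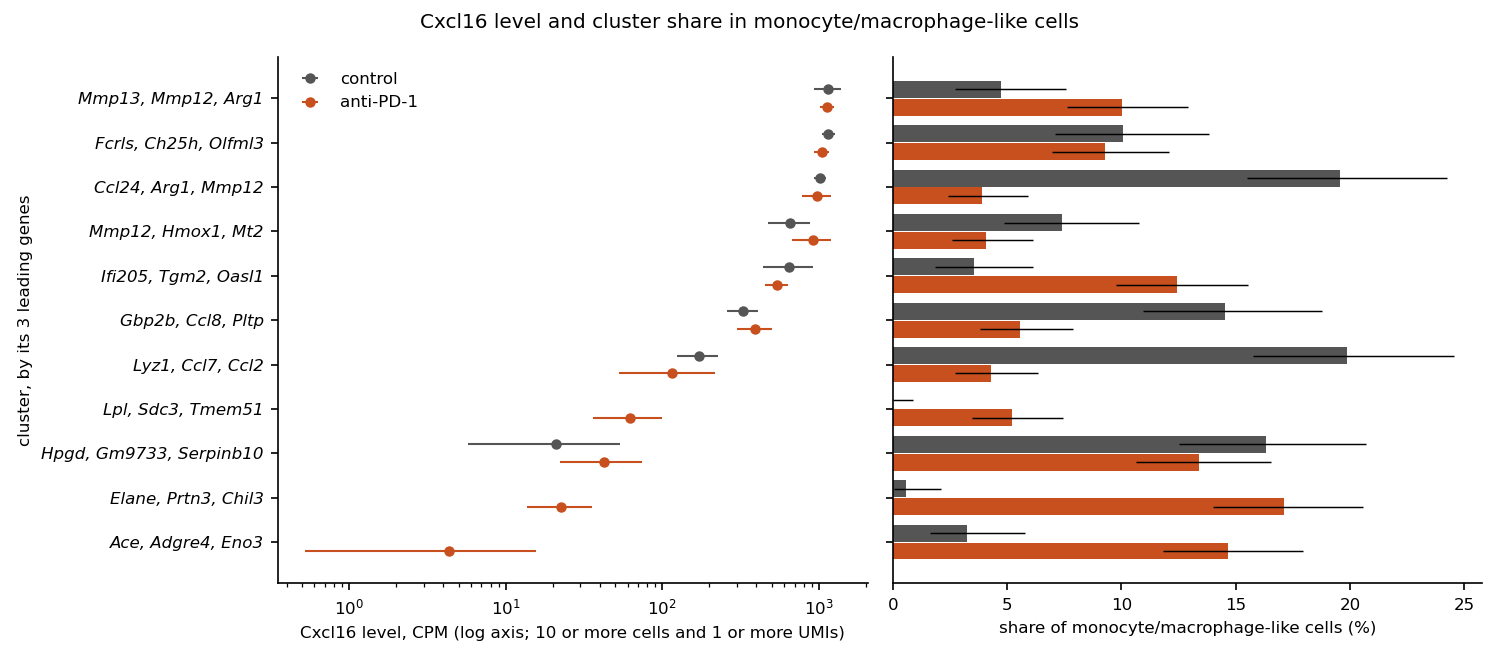
Left, Cxcl16 level in each monocyte/macrophage-like cluster (CPM, log axis, 95% Poisson intervals, clusters with 10 or more cells and 1 or more UMIs), and right, each cluster's share of the class in percent with 95% Clopper-Pearson intervals. The levels of the libraries lie close together within clusters, as at 1141 and 1136 CPM in the Mmp13 cluster, while the shares differ, as at 19.6% and 3.90% for the Ccl24 cluster.

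Of the receptors, Ccr4 and Ccr8 were at the edge of detection. Ccr4 had 15 UMIs in control and 27 in anti-PD-1 cells, of which T-cell-like cells held 93.3% and 92.6%. In regulatory T-cell-like cells it was 16.1 CPM (8 UMIs, 7 of 164 cells) and 21.4 CPM (19 UMIs, 18 of 341 cells), a log2 ratio of 0.41 whose interval (-0.85 to 1.81) allows a difference of either sign. None of the 3 measured members was called in this class, where 2.45% of 5595 genes were called higher and 1.70% lower. In CD4 T-cell-like cells Ccr4 had 5 and 3 UMIs. Over all T-cell-like cells it was 13.04 and 4.63 CPM (log2 ratio -1.49, -2.49 to -0.44), and there the classes were mixed differently, since CD8 T-cell-like cells, with 1 and 3 Ccr4 UMIs, made up 64 of the 343 T cells in control and 1077 of 1688 in anti-PD-1. As a measure of background, Ccr4 was found in 0 of 337 and 1 of 538 monocyte/macrophage-like cells.

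Ccr8 was found in 9 of 164 control regulatory T-cell-like cells (5.49%, 2.54 to 10.2) and in 1 of 341 anti-PD-1 cells (0.293%, 0.00742 to 1.62). The levels were 18.1 and 1.13 CPM, a log2 ratio of -4.01 with an interval from -9.46 to -1.16. The 10 UMIs in all were under the minimum of 20 for a call. The control cells were deeper (median 2874 against 2126 UMIs), and after each cell was thinned to 1000 UMIs, Ccr8 was left in 2 control and 0 anti-PD-1 cells, which is near the level of 1 UMI. No regulatory T-cell-like cell held both Ccr4 and Ccr8. Ccr4 and Ccr8 were found in 7 and 9 of 164 control cells and in 18 and 1 of 341 anti-PD-1 cells. These are too few to tell whether the receptors lie in separate cells. Over all T-cell-like cells 1 anti-PD-1 cell held both. Of the ligands of Ccr8, Ccl8 was 236 CPM in control monocyte/macrophage-like cells (398 UMIs in 28 cells) and 14.7 CPM in anti-PD-1 ones (46 UMIs in 15 cells), a log2 ratio of -4.01 (-4.48 to -3.56). Ccl1 had 42 and 52 UMIs over all cells and none in the dendritic or monocyte/macrophage-like classes.

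Ccr7 was mainly a gene of the migratory-DC-like class (84.5% and 91.2% of its UMIs) and was also high in the 11 and 11 B-cell-like cells, at 539 and 734 CPM. Over all T-cell-like cells it was 37.3 and 23.5 CPM (log2 ratio -0.66, -1.19 to -0.11), not called. In control 1 cell held 10 of the 40 UMIs, and without the richest cell of each library the log2 ratio was -0.33 (-0.92 to 0.30). With the clusters of at least 10 cells in both libraries weighted alike it was -0.22. In CD8 T-cell-like cells it fell by 1.78 on the log2 scale (-2.70 to -0.74), from 48.8 to 14.2 CPM, with a UMI in 7 of 64 and 30 of 1077 cells (10.9% and 2.79%). The clusters of the class were mixed differently. The Rgs16 and Lag3 cluster, with 6 of the 12 control UMIs in 2 cells, was 28.1% of the control and 5.66% of the anti-PD-1 class, and within it Ccr7 was 67.3 and 81.7 CPM (log2 ratio 0.28, -1.10 to 1.89). In the cluster led by 1500009L16Rik (13 and 131 cells) it was 137 and 7.32 CPM on 5 and 3 UMIs. In the one led by Gzmk and Cxcr3 (13 and 335 cells) it was 37.6 and 6.16 CPM on 1 and 5 UMIs. The other CD8 clusters held no control Ccr7 UMI, and the part of the mix in the class ratio was not tested. Ccr7 was the 1 of 2 measured members called in CD8 T-cell-like cells, where 1.90% of 7830 genes were called higher and 2.27% lower. In regulatory T-cell-like cells it was 26.2 and 29.3 CPM, but 1 control cell held 10 of the 13 UMIs, and without the richest cell of each library the levels were 6.12 and 24.9 CPM. In the remaining T-cell-like cells, which lacked Cd4 and Foxp3 and carried Klra1, it was 56.8 CPM in control, with a log2 ratio of 0.77 (-0.25 to 1.91). In NK-cell-like cells 15.2 and 4.84 CPM were read (log2 ratio -1.65). Free RNA would give 4.69 and 4.68 CPM, which is near the anti-PD-1 level and below the interval of the control level (9.15 to 23.7). The share of NK-cell-like cells with a Ccr7 UMI was 2.73% and 1.38%, beside 2.37% and 1.49% of the deeper monocyte/macrophage-like cells, and 1 control cell held 5 of the 19 UMIs. Of the Ccr7 ligands, Ccl19 and Ccl21a had no UMI in any cell of either library, which allows up to 0.636 CPM in control and 0.249 CPM in anti-PD-1 cells.

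Cxcr6 was the receptor with the largest count, 381 UMIs in control and 3913 in anti-PD-1 cells, and T-cell-like cells held 94.0% and 95.4% of them. Over all T-cell-like cells it rose from 334 to 691 CPM (log2 ratio 1.05, 0.89 to 1.21). It was found in 126 of 343 control cells (36.7%) and in 1111 of 1688 anti-PD-1 cells (65.8%), and in 22.4% and 44.0% after thinning to 1000 UMIs per cell. In all T-cell-like cells 1 of 4 measured members was called higher and 1 lower (Ccr4), beside 3.24% and 3.73% of 8912 genes. The make-up of the T cells differed. CD4 T-cell-like cells held 36.5% of the control and 13.9% of the anti-PD-1 Cxcr6 UMIs, CD8 T-cell-like cells 30.2% and 76.4%, and regulatory T-cell-like cells 23.9% and 4.01%.

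Within each T-cell class the ratio was smaller than over all T cells. In CD8 T-cell-like cells, Cxcr6 was 468 CPM in control and 786 CPM in anti-PD-1 cells (log2 ratio 0.75, 0.48 to 1.03), with a UMI in 41 of 64 and 888 of 1077 cells. In CD4 T-cell-like cells it was 1011 and 1428 CPM (log2 ratio 0.50, 0.23 to 0.78), with a UMI in 29 of 51 and 112 of 141 cells. In regulatory T-cell-like cells it was 183 and 177 CPM (log2 ratio -0.05, -0.43 to 0.34), with a UMI in 45 of 164 and 84 of 341 cells, and there the interval leaves out a 2-fold difference in counting terms. In the remaining T-cell-like cells it was 67.1 and 124 CPM (log2 ratio 0.89, -0.04 to 1.91). None of these passed the call, which 2.57% of 2920 genes passed upward and 1.68% downward in CD4 T-cell-like cells. With the T-cell-like clusters of at least 10 cells in both libraries weighted alike, the log2 ratio over all T cells was 0.73, under 2-fold. That value leaves out CD8 clusters with 282, 89, 88, 63 and 28 of the 1077 anti-PD-1 cells. It also leaves out a regulatory T-cell-like cluster with 35 of the 164 control cells.

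Among the classes the order of Cxcr6 levels was the same in both libraries, with CD4 T-cell-like cells first, then CD8, regulatory and remaining T-cell-like cells, and NK-cell-like cells last, and the counting intervals of neighbours in that order did not overlap except between regulatory and remaining T-cell-like cells in the anti-PD-1 library. Among CD8 clusters with at least 10 cells in both libraries, the one led by Rgs16 (with Lag3) had 706 and 963 CPM (log2 ratio 0.45, 0.04 to 0.88). The one led by Gzmk and Cxcr3 had 564 and 1032 CPM (log2 ratio 0.87, 0.14 to 1.71), and the one led by 1500009L16Rik had 110 and 730 CPM (log2 ratio 2.73, 1.36 to 4.62) on 4 control UMIs. Each rests on 13 to 18 control cells. The cycling CD8 cluster led by Hist1h1b, with 89 anti-PD-1 cells, was the lowest of that library's CD8 clusters at 252 CPM. The CD4 cluster led by Il22 and Furin had 694 and 1124 CPM, and that led by Cd4 and Hspa1a 1305 and 1661 CPM.

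**Figure D4:**
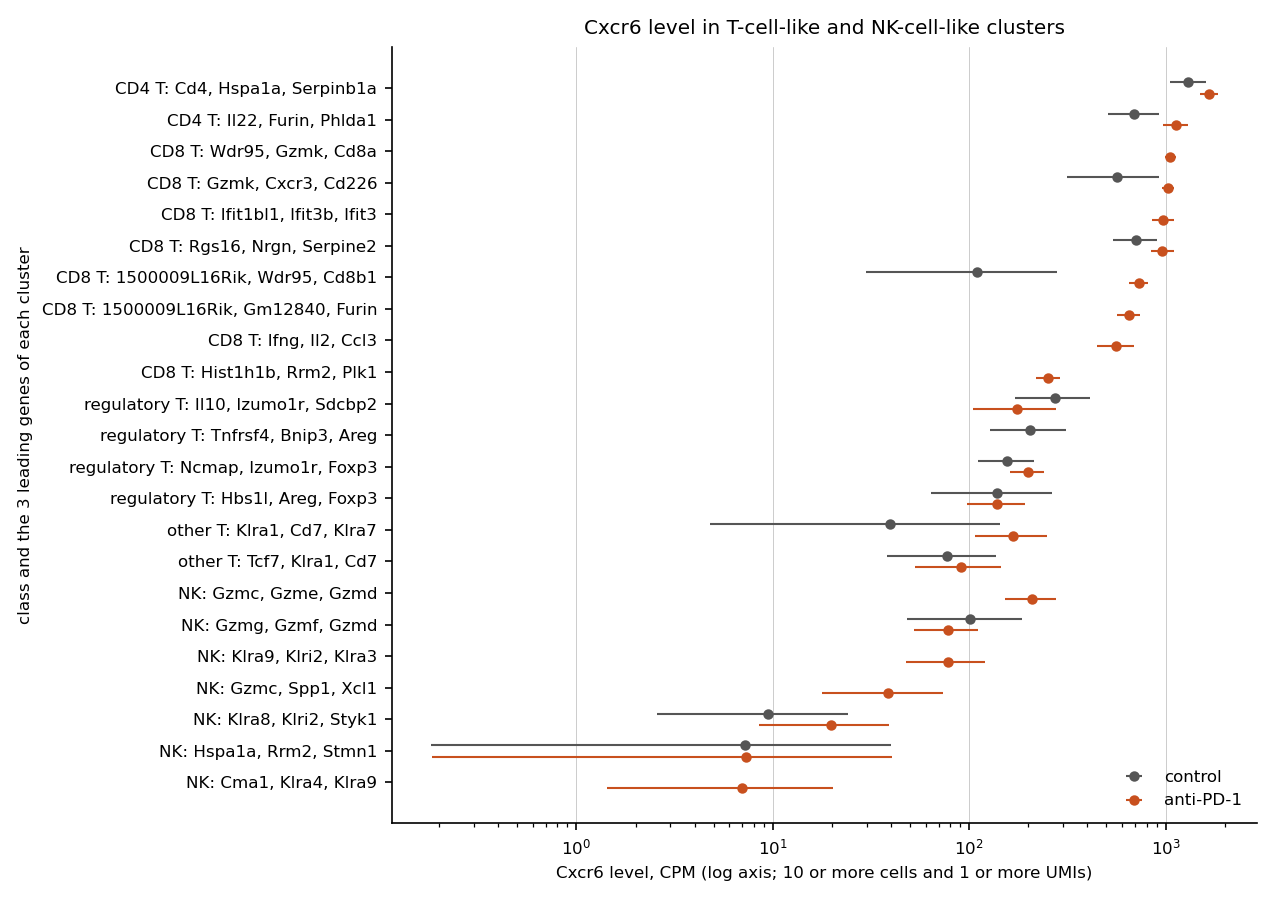
Cxcr6 level in T-cell-like and NK-cell-like clusters (CPM, log axis, 95% Poisson intervals), named by class and 3 leading genes, for clusters with 10 or more cells and 1 or more UMIs in the library. CD4 and CD8 clusters of the anti-PD-1 library reach up to 1661 CPM, regulatory T-cell-like clusters lie between 139 and 273 CPM in both libraries, and NK-cell-like clusters reach 208 CPM.

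In NK-cell-like cells Cxcr6 was 16.8 CPM in control (21 UMIs in 12 of 366) and 56.6 CPM in anti-PD-1 (117 UMIs in 51 of 653), with a log2 ratio of 1.75 (1.07 to 2.50). Both measured members were called in this class, Cxcr6 higher and Ccr7 lower, beside 1.85% of 7478 genes called higher and 1.07% lower. T-cell markers differed alongside, with summed levels of 178 and 494 CPM and a Cd3 UMI in 10.7% and 21.6% of the NK-cell-like cells. The clusters were mixed differently as well. The Gzmg and Gzmf cluster, with 10 of the 21 control and 30 of the 117 anti-PD-1 Cxcr6 UMIs, was 4.37% of the control and 9.04% of the anti-PD-1 class, and within it Cxcr6 was 100.8 and 77.6 CPM (log2 ratio -0.38, -1.45 to 0.82). The Gzmc and Gzme cluster, with 6 and 46 UMIs, was 1.91% and 6.74% of the class. Its T-cell markers summed to 1513 CPM over both libraries, the highest of the NK-cell-like clusters. In the cluster led by Klra9 and Klri2 (31 and 96 cells) Cxcr6 had 0 and 20 UMIs, with a lower limit of 0.56 for the log2 ratio. In the one led by Gzmc and Spp1 (25 and 54 cells) it had 0 and 9 UMIs. The part of the mix in the class ratio was not tested. Of the NK-cell-like cells with Cxcr6, 6 of 12 in control and 23 of 51 in anti-PD-1 also held a Cd3 UMI. Without the cells that carried a Cd3 UMI, Cxcr6 was 10.2 and 40.8 CPM on 11 and 58 UMIs, a log2 ratio of 1.99 (1.05 to 3.07). T cells in which no Cd3 UMI was captured would remain in that value, and their part was not tested. Thinned to 1000 UMIs per cell the ratio of the whole class was 0.75, on 7 and 21 UMIs. The NK-cell-like cells with Cxcr6 often held Gzmc, a granzyme, in 83.3% (control) and 62.7% (anti-PD-1) of them, against 27.1% and 35.7% of those without Cxcr6. Cells with a Cxcr6 UMI were deeper, at medians of 4505 and 4501 UMIs against 2813 and 2196, and after thinning the shares were 33.3% and 44.4% against 18.6% and 30.4%.

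Cxcr6 in monocyte/macrophage-like cells had 2 UMIs in control and 23 in anti-PD-1 cells (log2 ratio 2.63, 0.61 to 5.76) and was the 1 of 2 measured members called there, beside 3.95% of 8539 genes called higher and 3.50% lower. Of the 13 anti-PD-1 cells 9 also held a Cd3 UMI, and without Cd3-carrying cells the levels were 1.31 and 1.56 CPM. T-cell markers in that class summed to 16.6 and 97.8 CPM.

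**Figure D5:**
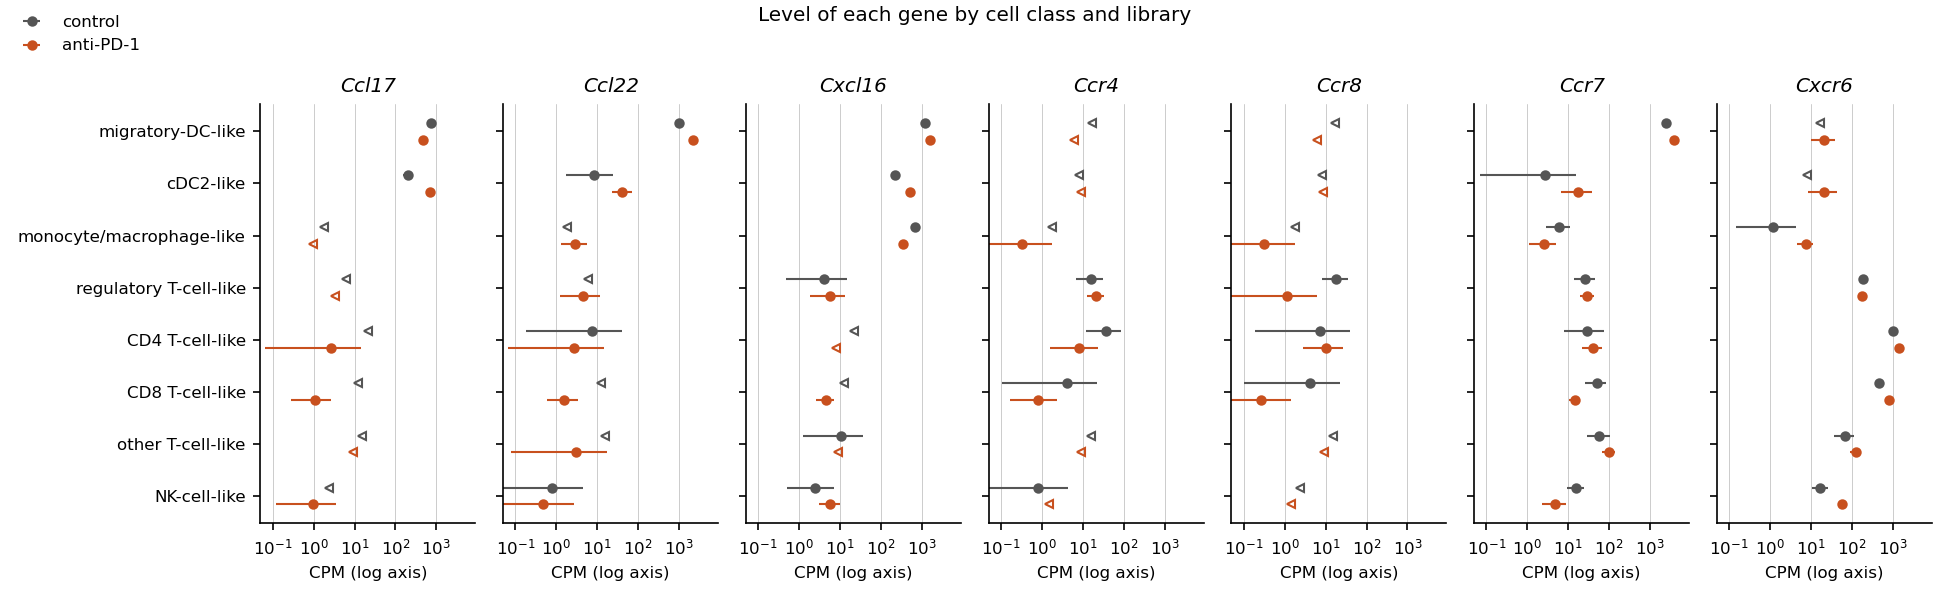
Level of each of the 7 genes (CPM, log axis, with 95% Poisson intervals, some narrower than the point) in 8 cell classes of the control and the anti-PD-1 library; open triangles give the upper limit from 3 UMIs where none was found. All 3 ligands lie high in the migratory-DC-like row, Ccl17 and Cxcl16 also in the cDC2-like row and Cxcl16 in the monocyte/macrophage-like row, Cxcr6 in the T-cell rows from 67.1 to 1428 CPM, and Ccr4 and Ccr8 stay under 40 CPM in every row.

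T cells with and without Cxcr6 were compared for Pdcd1, which encodes PD-1 itself. It had a UMI in 39.7% of carriers against 17.5% of other T-cell-like cells in control and in 36.1% against 13.7% in the anti-PD-1 library. The carriers were the deeper cells (medians of 3164 against 2745 and 2865 against 2231 UMIs). After thinning to 1000 UMIs per cell the Pdcd1 shares were 18.2% and 6.77%, and 17.8% and 11.01%. These are descriptions over cells of 1 library each, and no test was made over them. Carriers and other cells were pooled over the T-cell classes, which differed in both genes. Over both libraries Pdcd1 was 279 and 453 CPM in the CD4 clusters and 79.6 to 544 CPM in the CD8 clusters. It was 67.9 to 137 CPM in the regulatory clusters and 42.5 and 15.5 CPM in the remaining T-cell-like clusters. The part of class in the Pdcd1 shares was not tested.

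Ligand sources and receptor-bearing lymphocytes were then counted per library, with migratory-DC-like, cDC2-like and monocyte/macrophage-like cells as sources (425 control and 710 anti-PD-1 cells) and T-cell-like and NK-cell-like cells as receivers (709 and 2341). For Cxcl16 and Cxcr6, the share of sources with a ligand UMI was alike, 53.6% (48.8 to 58.5) and 51.7% (47.9 to 55.4), while the share of receivers with a receptor UMI was 19.5% (16.6 to 22.6) and 49.6% (47.6 to 51.7). Per Cxcl16-carrying source cell there were 0.605 (control) and 3.17 (anti-PD-1) Cxcr6-carrying lymphocytes, or 0.619 and 3.52 after thinning. For Ccl22 and Ccr4 the ligand side was larger, 6.82% (4.62 to 9.65) and 14.1% (11.6 to 16.9) of sources, and the receptor side small, 1.97% (1.08 to 3.29) and 1.03% (0.658 to 1.52) of receivers. That gave 0.483 Ccr4-carrying lymphocytes per Ccl22-carrying source in control and 0.240 in anti-PD-1, but 0.188 and 0.196 after thinning, so no order is read from it. For Ccl17 and Ccr4 the numbers were 0.778 and 0.750, and 0.3 and 0.55 after thinning, on 3 and 11 Ccr4-carrying cells. The ratios depend on how many cells of each class the sort delivered, and migratory-DC-like cells were 2.73% and 3.16% of all cells while CD8 T-cell-like cells were 5.45% and 32.4%. The source shares depend on the mix as well. Migratory-DC-like cells were 32 of the 425 control sources and 105 of the 710 anti-PD-1 sources. Within that class a Ccl22 UMI was found in 27 of 32 and 85 of 105 cells, so the share did not rise there. The part of this mix in the Ccl22 source shares was not tested.

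Other chemokine and homing genes were looked at as whole lists. In migratory-DC-like cells 8 of the 32 listed chemokine ligands could be measured, 3 called higher and 1 lower, with a median log2 ratio of 0.42 against 0.16 over all genes tested. The higher ones were Cxcl9 (61.7 and 136 CPM), a ligand of Cxcr3, and the neutrophil attractants Cxcl1 (0 and 63 UMIs) and Cxcl2 (0 and 53 UMIs, named after its value was seen), and the lower one was Cxcl10 (157 and 64.6 CPM). Neutrophil markers in this class summed to 0 CPM in control (0 of 8 detected) and 284 CPM in anti-PD-1 (6 of 8), T-cell markers to 11.2 and 91.7 CPM and cDC1 markers to 1161 and 2400 CPM, and their part in these values was not tested. Ccl5, with the most UMIs, was 12839 and 16605 CPM, not called. Of 22 dendritic-cell maturation genes, all measured, 6 were called higher and none lower (median 0.36 against 0.16). Those with the most UMIs were not among them, with Fscn1 at a log2 ratio of 0.52 and Marcksl1 at 0.63. The 6, named after their values were seen, were the costimulatory genes Cd40 (224 and 630 CPM) and Cd80, the PD-1 ligand gene Cd274 (89.7 and 242 CPM), the adhesion gene Icam1 (107 and 336 CPM), the cytokine gene Il15, and Nfkb2. Ccrl2, from the list of chemokine receptors, was called higher (95.4 and 231 CPM), and Gpr183, the oxysterol receptor that positions dendritic cells, lower (241 and 117 CPM, named after its value was seen).

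In cDC2-like cells 11 ligands were measured, 6 called higher and 1 lower (median 1.11 against 0.11), including Cxcl10 at 125 and 846 CPM, beside the T-cell marker values given above. Of 15 measured maturation genes 4 were called higher, Ccl5 (67.7 and 700 CPM) being the one with the most UMIs. In monocyte/macrophage-like cells 2 of 19 ligands were called higher and 5 lower (median -0.51 against 0.04), with Cxcl10 at 285 and 1101 CPM. Neutrophil markers in that class summed to 256 and 2746 CPM, and their part was not tested. Of 5 measured genes from a list of shedding and scavenger-receptor genes, Scarb1, a scavenger receptor, was called higher (23.1 and 46.5 CPM). The sheddase gene Adam10 was 63.4 and 44.9 CPM and Adam17 52.7 and 42.4 CPM, not called. Genes of type 2 signalling, which is known to induce Ccl17 and Ccl22, gave no call among 6 measured in migratory-DC-like, 5 in cDC2-like and 6 in monocyte/macrophage-like cells, with the receptor chain Il4ra at 61.7 and 100.2 CPM in migratory-DC-like cells. Of all genes tested in these classes, 6.34%, 4.02% and 3.95% were called higher and 2.09%, 1.93% and 3.50% lower. Lists of 5 or 6 genes are too short to be set apart from those shares.

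Among receptors of CD8 T-cell-like cells, 7 were measured, 3 called higher and 2 lower (median -0.84 against -0.12). Ccr2 (97.7 and 240 CPM) and Cxcr3 (106 and 214 CPM), both receptors for inflammatory chemokines, were among the higher ones, and Cx3cr1 (61.0 and 20.2 CPM) and Ccrl2 (44.8 and 18.9 CPM), named after their values were seen, were the lower ones. Of 15 homing and retention genes Itgb7 was called higher (110 and 254 CPM) and Itgb1 lower (236 and 117 CPM, named after its value was seen). In CD8 T-cell-like cells 1.90% of all 7830 genes tested were called higher and 2.27% lower. The clusters of that class were mixed differently, as given above for Ccr7, and the part of the mix in these values was not tested. In regulatory T-cell-like cells none of 7 measured receptors was called (median -0.03 against 0.04), beside 2.45% of all genes called higher and 1.70% lower. Ccr2 was 824 and 808 CPM and Cxcr3 163 and 131 CPM. In NK-cell-like cells none of 5 receptors and none of 16 homing genes was called, beside 1.85% of all genes called higher and 1.07% lower.

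Genes whose class profile was most like that of each member were found by Pearson's r of log2(CPM + 10) over 17 class and library sums, a description in which both libraries and shared depth enter. Ccl22 was most like Flrt3 (r = 0.98), Net1 (0.98) and Bcl2l14 (0.97), and Ccl17 most like Siglecg (0.98), Flt3 (0.98) and Il4i1 (0.95). Cxcl16 was most like Cttnbp2nl (0.98), Renbp (0.97) and A530040E14Rik (0.97), and Ccr7 most like Tbc1d4 (0.95), Cd200 (0.93) and Ly75 (0.93). Cxcr6 was most like Ubash3a (0.96), Themis (0.95) and Lat (0.94). With 42 and 18 UMIs in all, Ccr4 was most like Podnl1, Cd4 and Cdkn1b (0.91 each) and Ccr8 most like Cd4 (0.86), Podnl1 (0.83) and Sdf4 (0.81).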

How the data were processed

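The authors deposited raw UMI counts for 737280 barcodes in each of 2 matrices, made with Cell Ranger 2.1 and the mm10 build per the submitters' processing notes. Kept barcodes were clustered jointly with scanpy 1.11.5 (Python 3.11.15; 2000 variable genes, 30 principal components, 15 neighbours, Leiden resolution 1.0, then 0.5 within clusters of at least 100 cells) without 284 genes, the members, chemokine, cell-cycle and mitochondrial genes among them. The resulting 44 clusters were named "-like" from marker lists, and 2 barcodes with over 1% haemoglobin UMIs were set aside. Scrublet doublet scores were computed and no cell was removed for them in the main values. UMIs were summed per class and library. Levels carry exact Poisson intervals, shares Clopper-Pearson intervals and ratios conditional binomial intervals. A count of 0 was given the limit of 3 counts. UMIs collapse PCR copies, yet intervals and limits cover counting error only. Ratios needed at least 30 cells per library in a class, 10 in a cluster and 20 UMIs. Values with clusters weighted alike use only clusters with at least 10 cells in both libraries, each given the same weight in both. The calculation was tested on simulated data. Members, gene lists and markers were chosen with earlier results of these data known. Named were the 7 members, up to 4 genes per list with the most UMIs, the 3 most alike genes, and ligands of Ccr7 and Ccr8. Each group being 1 library, no test was made.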

Additional observations from a re-analysis of the deposited data

Results flagged for a closer look

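Several genes had ratios of opposite sign in a pair of cell classes, with intervals that did not hold 0 in either class. None of these differences was tested, since each condition is 1 library. Ccl17 had a log2 ratio of 1.84 in cDC2-like and -0.64 in migratory-DC-like cells, a gap of 2.48, with the cDC2-like value resting on 5 and 7 cells. Cxcl16 had 0.39 in migratory-DC-like and -0.94 in monocyte/macrophage-like cells, a gap of 1.32, and 1.26 in cDC2-like cells, a gap of 2.20 to monocyte/macrophage-like cells. With matched clusters weighted alike the monocyte/macrophage-like value was -0.03. Ccr7 had 0.60 in migratory-DC-like and -1.78 in CD8 T-cell-like cells, a gap of 2.39. In the Rgs16 and Lag3 cluster of CD8 T-cell-like cells, which was 28.1% of the control and 5.66% of the anti-PD-1 class, the log2 ratio was 0.28. In the CD8 cluster led by 1500009L16Rik, Ccr7 was 137 and 7.32 CPM, on 5 and 3 UMIs. The gap of Ccr7 to NK-cell-like cells (-1.65) was 2.25, and there the anti-PD-1 level of 4.84 CPM lay near the 4.68 CPM that free RNA would give.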

How the results depend on the processing

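Over 112 alternative values for 10 results, the sign was the same in all, and 97 lay within the counting interval of the reported value. Not all of these could differ. At resolution 0.5, at resolution 2.0 and with another seed, the migratory-DC-like class again held 32 and 105 cells. Its Ccl22, Ccl17 and Ccr7 values were then unchanged. For Ccr8 in regulatory T-cell-like cells the interval ran from -9.46 to -1.16, so lying within it says little. Thinning each cell to 1000 UMIs moved Ccl22 in migratory-DC-like cells from a log2 ratio of 1.12 to 0.85, Cxcl16 in monocyte/macrophage-like cells from -0.94 to -0.41, Ccr4 in regulatory T-cell-like cells from 0.41 to 1.94 (1 control UMI left) and Cxcr6 in NK-cell-like cells from 1.75 to 0.75. Averaging single cells gave 0.61 for Ccl22, -0.30 for that Cxcl16 value and 1.30 for Cxcr6 in all T-cell-like cells (1.05 reported). Weighting matched clusters alike gave -0.03 for Cxcl16 and 0.73 for Cxcr6. Cxcl16 was -1.19 with a minimum of 1500 UMIs, -1.13 at resolution 0.5 and -1.07 with another seed. Ccl17 in cDC2-like cells (1.84) was 6.17 with a minimum of 500 UMIs, 6.40 at resolution 2.0 and 3.88 without the richest cell of each library. The class itself changed in the first of these settings, to 44 and 56 cells, and at resolution 2.0, to 30 and 30, from 56 and 67. Its control Ccl17 level was then 13.6 and 12.1 CPM, against 198 CPM in the main values. Apart from thinning, averaging and weighting, whose construction changes what is summed, the cause was not tested. The alternatives without the richest cell and without Cd3-carrying cells were chosen after seeing the data. No value could be had for the dendritic classes at 1500 UMIs, for migratory-DC-like cells without the highest doublet scores (under 30 cells), or for thinned Ccr8 and Ccr8 without its richest cell (0 UMIs in a library). No paired analysis was possible because each group is 1 library. Depth limits Ccr4 and Ccr8, with 42 and 18 UMIs in all.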
